A study of Mus musculus with 72 samples.

Results

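The strongest integrated reporters of a TRIP experiment in mouse embryonic stem cells were examined: 434 of 17500 autosomal integrations, or 2.48%, whose expression lay more than 4 log2 units, or 16-fold, above the median of their pool. TRIP, an assay of many reporters integrated in parallel, inserts one reporter gene at many genomic sites and reads each site out through a random DNA barcode. The level of a reporter was the share of its barcode among the RNA reads of its pool over its share among the DNA reads. It was taken on the log2 scale, averaged over both cultures of the pool, and set to 0 at the pool median. The 434 reporters were chosen by these RNA and DNA counts, so their levels are given as a description and were not tested. The table lists 17857 reporters in all, and those on the X and Y chromosomes were not part of the selection.

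All 6 pools, mPGK-A to mPGK-F, had the same design. EBRTcH3 cells, a mouse embryonic stem cell line that makes the tetracycline-controlled transactivator from its own Rosa26 promoter, were transfected with a barcoded piggyBac library carrying the mouse Pgk promoter and with piggyBac transposase (mPB). The cells were kept with leukemia inhibitory factor and the inhibitors PD0325901 (of MEK) and CHIR99021 (of GSK-3). Sorted cells of low eGFP signal were grown for 5 days and small pools for 7 days, and each pool was then divided into 2 cultures for 7 further days. No pool carries another promoter, and no sample from the cells of higher eGFP signal was used here, so the range of levels is that of cells that passed this sort. Cultures of a pool share their integrations and are technical replicates. In tests the pool was the unit, and the remaining 17066 autosomal reporters of the same pools served for comparison.

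The Pgk promoter drives the gene of the glycolytic enzyme phosphoglycerate kinase and is active in most cell types. An identical promoter placed at different sites is nonetheless transcribed to very different degrees, which is known as a position effect. It is attributed to the chromatin and the regulatory elements around the insertion. The piggyBac transposase inserts at TTAA sites with a preference for open chromatin, and the barcode, lying in the transcribed part, names the site in RNA and DNA alike.

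The barcodes themselves show how the readout was tied to places. For the 3 reporters with the highest levels the barcodes were as follows, written in full and in capitals because every base belongs to the tag.
mPGK-A, chromosome 11: ATTTGAGAGCGAGATC
mPGK-E, chromosome 11: ATGCCATGAATCTGA
mPGK-D, chromosome 4: ATATCGTAAATAGCCC
Of the 434 barcodes, 23 were also listed in another pool, each at another place. The 5 of these with the highest levels were the following, and their values at both places are given further on.
mPGK-D, chromosome 14: ATTTGAGAAAATTATA
mPGK-A, chromosome 12: ACGGGATTATTGTCAA
mPGK-E, chromosome 2: TCCGGGTATACCGCCC
mPGK-B, chromosome 4: TTTTCCCCACCCAGGA
mPGK-C, chromosome 9: CGAACACCTTTGATAC

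The levels of the 434 reporters ran from 4.00 to 7.31 log2 units, with a median of 4.54 (23.3-fold above the pool median) and quartiles of 4.19 and 5.07. Most lay close to the threshold: 319 (73.5%) were between 4 and 5, while 115 were over 5, 17 over 6 and 2 over 7. Just inside the threshold, 5 reporters had levels of 4.00 to 4.01, and just outside it the next 5 had levels of 3.98 to 3.99. The threshold thus divides a continuous range of levels. Together the 434 reporters took 22.5 ± 5.42% of the RNA reads and 2.08 ± 0.706% of the DNA reads of a pool (SD, n = 6 pools). By culture the RNA share ran from 15.5% to 30.4%.

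Every pool contributed. The strongest reporters were 68 of 2671 autosomal reporters in mPGK-A, 67 of 3111 in mPGK-B, 57 of 2468 in mPGK-C, 97 of 3099 in mPGK-D, 86 of 3098 in mPGK-E and 59 of 3053 in mPGK-F. Their share was highest in mPGK-D, at 3.13%, and lowest in mPGK-F, at 1.93%, with a mean of 2.47 ± 0.436% (SD, n = 6 pools). Their median level was lowest in mPGK-C, at 4.38, and highest in mPGK-E, at 4.70.

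Read numbers set how well a single level was known. Totals over the listed barcodes of a pool and culture were 3386477 to 3693449 DNA reads and 2880244 to 3508366 RNA reads. A strongest reporter had between 385 and 59938 RNA reads in a culture and between 21 and 7571 DNA reads, so the DNA count was usually the smaller of the pair. Reads are PCR products without molecular identifiers, so they are not independent molecules.

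In both cultures, 309 of the 434 (71.2%) were over the threshold, 124 were over it in a single culture, and 1 was over it in neither, since each culture was centred on its own median. The lowest level of any of them in a single culture was 2.86. The median difference between cultures was 0.38 log2 units among the strongest reporters and 0.44 among the others. Among the 6503 other reporters with at least 400 RNA reads in each culture it was 0.29. The cultures lay more than 1 log2 unit apart for 45 reporters (10.4%) and more than 2 apart for 6.

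Choosing reporters in one culture and reading them in the other separates the choice from the measurement. Of 460 reporters over the threshold in culture 1, 309 (67.2%) were over it in culture 2 and 434 (94.3%) were over 3 there. Their median level was 4.40 in culture 2, against 4.53 in culture 1. Of 441 over the threshold in culture 2, 309 (70.1%) were over it in culture 1 and 426 (96.6%) were over 3. Their median level was 4.45 in culture 1, against 4.57 in culture 2. Nearly all of them stayed high in the culture that had not chosen them, at a slightly lower median.

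**Figure D1:**
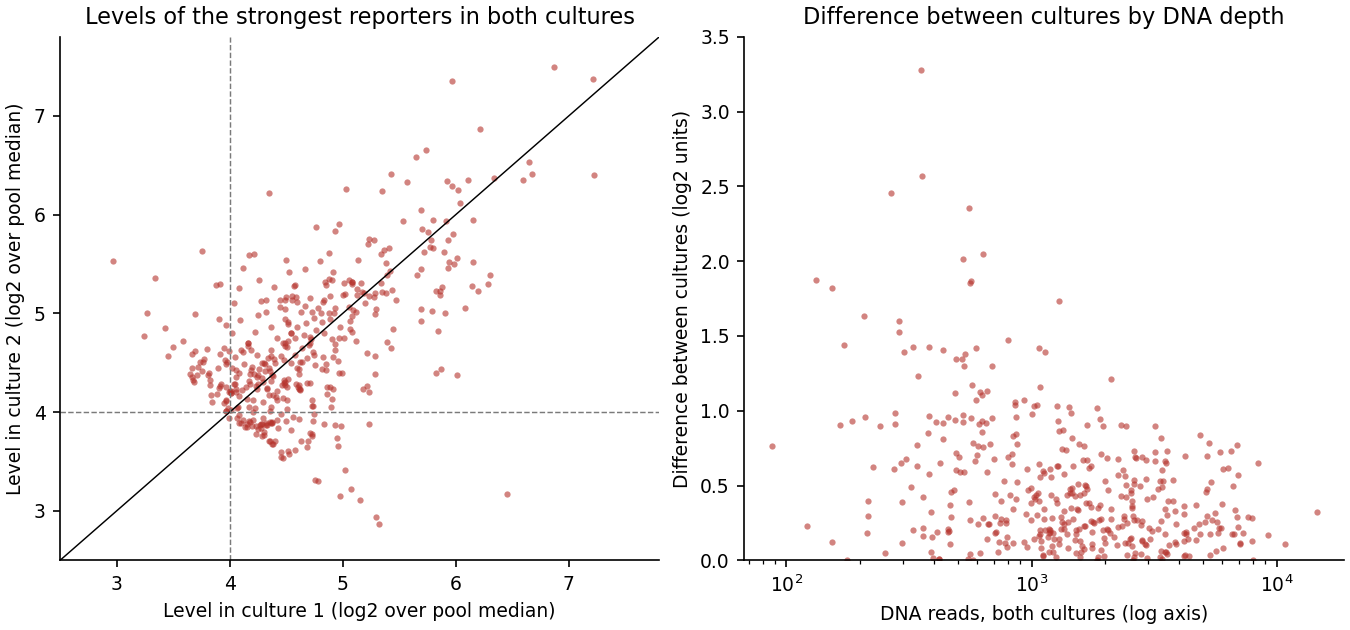
Left, level of each of the 434 strongest reporters in culture 1 and culture 2 (log2 over the pool median), with the diagonal and the threshold of 4 (dashed). Right, absolute difference between the cultures against the DNA reads of both cultures (log axis). Points over a difference of 2 all have fewer than 1000 DNA reads.

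The strongest reporters had somewhat fewer DNA reads than the others. Summed over both cultures, the median was 1402.5 DNA reads for the strongest and 1677 for the others. The log2 ratio of the medians averaged -0.32 ± 0.30 (SD, n = 6 pools), and -0.50 where the reporters were chosen by culture 1 alone. In mPGK-A the strongest were the higher, at 1686 against 1585 reads. In mPGK-F the gap was wide, at 1178 against 1878 reads. Of the 434, 254 (58.5%) lay below the median DNA count of their pool, 65 (15.0%) in its lowest 10% and 36 (8.29%) above its 90th percentile. DNA reads are the denominator of the level, so this depth was part of the choice and was not tested. Under 100 DNA reads in a culture were found for 22 of the strongest reporters (5.07%) and for 3.31% of the others.

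Depth moved with the agreement of the cultures but hardly with the median level. In 4 classes of about equal size by DNA reads, from lowest to highest, the median level was 4.51, 4.61, 4.59 and 4.46. All these levels are over the threshold of 4 by choice, and most lie below 5. The medians therefore cannot show how level moves with depth. The median difference between cultures was 0.76, 0.39, 0.34 and 0.26. At least 1000 DNA reads in each culture were available for 139 reporters. Their median level was 4.44, their median culture difference 0.27 and their highest level 6.55, so high levels were also seen where DNA counts were large.

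The 10 highest reporters lay on 7 chromosomes, and 8 of them had fewer DNA reads than the median of their pool. Their median DNA percentile was 28.1, so the top of the ranking rests on lower counts than the whole set. Positions are those of mm9 as listed.

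The highest of all, in mPGK-A at chromosome 11 position 8522893 on the plus strand, had levels of 7.21 and 7.38 in cultures 1 and 2. These came from 155 and 205 DNA reads and 8661 and 10791 RNA reads, and its averaged level corresponds to 159-fold over the pool median. It had no other strongest reporter within 50 kb, although 6 reporters lay within 100 kb. The nearest reporter of another pool, 37593 bp away, had a level of 2.04.

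The second, in mPGK-E at chromosome 11 position 69494934 on the plus strand, had levels of 6.87 and 7.50 from 143 and 83 DNA reads. The next pair in rank lay 3965 bp apart on the plus strand of chromosome 4, from separate pools. In mPGK-D, position 140853193 had levels of 7.22 and 6.40 from 547 and 911 DNA reads. In mPGK-E, position 140857158 had levels of 5.96 and 7.35 from 221 and 80 DNA reads. Both had at least 5.96 in each culture, while their cultures differed by 0.82 and 1.39 log2 units, so their order is not fixed by these data.

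A pair of the 10 combined a high level with many reads. In mPGK-C, chromosome 3 position 88379102 on the plus strand had levels of 6.21 and 6.86 from 2122 and 1399 DNA reads. Its 116800 RNA reads over both cultures were the most of any of the 434. In mPGK-F, chromosome 6 position 39384478 on the minus strand had levels of 6.67 and 6.41 from 1459 and 1358 DNA reads.

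The other 4 had averaged levels of 6.27 to 6.58. In mPGK-F, chromosome 1 position 88399328 on the plus strand had 6.65 and 6.53, and chromosome 3 position 133198915 on the plus strand had 6.60 and 6.35. In mPGK-A, chromosome 8 position 91569147 on the minus strand had 6.34 and 6.37. In mPGK-D, chromosome 5 position 28119015 on the minus strand had 6.11 and 6.35, with no reporter of any pool within 100 kb. The cultures of these 4 differed by 0.03 to 0.25 log2 units.

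Reporters inserted near a strongest reporter had higher levels than those near other reporters, with about equal means within 1 kb and from 1 to 5 kb and lower ones farther away. For this comparison, each strongest reporter was set against reporters with other barcodes in the other pools. Those were separate integrations in other cells, and their levels had no part in its choice. Within 1 kb, neighbours of the strongest reporters averaged 3.24 ± 0.94 log2 units, and neighbours of the other reporters 0.47 ± 0.24 (SD, n = 6 pools). The difference was 2.77 ± 1.01 (6.84-fold), with 50 strongest reporters having such a neighbour. From 1 to 5 kb the means were 3.24 ± 0.30 and 0.59 ± 0.09, a difference of 2.65 ± 0.29. From 5 to 20 kb they were 2.63 ± 0.64 and 0.37 ± 0.07, a difference of 2.26 ± 0.65.

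The difference was smaller farther away and still passed the test at the widest distances examined. From 20 to 50 kb neighbours of the strongest averaged 1.99 ± 0.21 and those of the others 0.27 ± 0.06, a difference of 1.72 ± 0.22. From 50 to 100 kb the means were 1.50 ± 0.24 and 0.13 ± 0.05, a difference of 1.37 ± 0.21. From 100 to 500 kb they were 0.68 ± 0.18 and -0.24 ± 0.03, a difference of 0.91 ± 0.17 (1.89-fold). In each of the 6 classes the neighbours of the strongest were higher in 6 of 6 pools. The exact two-sided sign-flip permutation test over pools gave p = 0.03125 in each, the smallest that 6 pools allow, and 0.03125 after Benjamini-Hochberg adjustment over the 6 classes. A close pair from different pools enters the values of both pools, so the 6 pools are not fully independent in this test. With neighbours over the threshold left out, the difference was 1.50 within 1 kb, where it no longer passed (exact permutation test, adjusted p = 0.0938), 1.84 from 1 to 5 kb and 1.36 from 5 to 20 kb. Without mPGK-B it was 1.85 within 1 kb, with an exact permutation p of 0.125, above the 0.0625 that 5 pools allow.

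**Figure D2:**
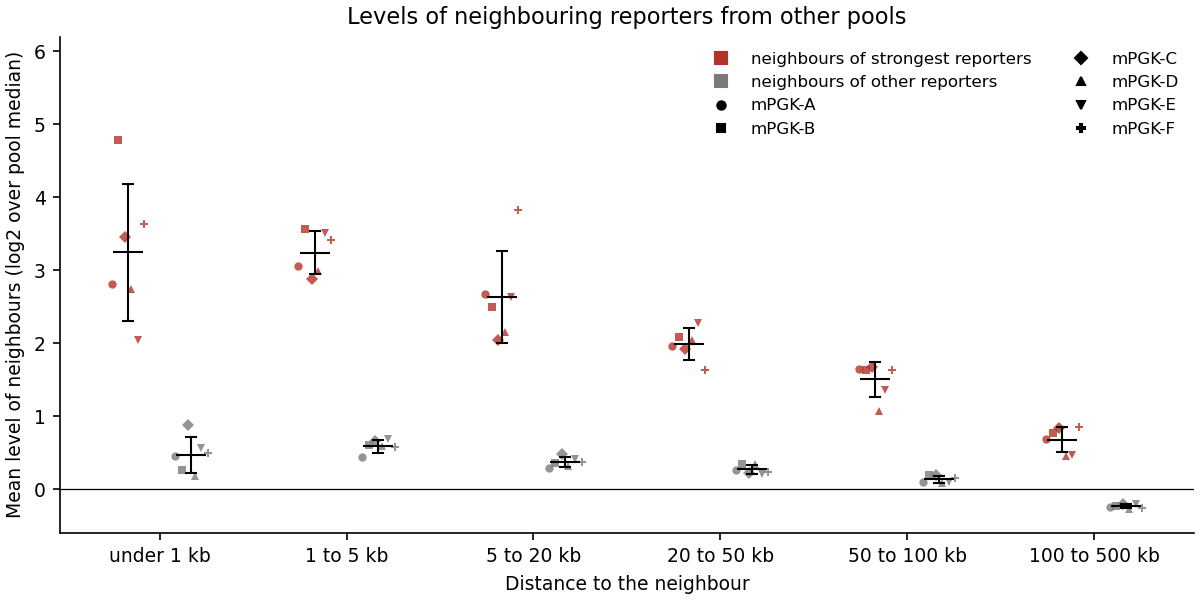
Mean level of reporters of other pools (log2 over the pool median) by distance, around the strongest reporters (red, left) and around the other reporters (grey, right). Symbols are the 6 pools, and bars are the mean ± SD over pools; the red symbols lie above the grey ones in every pool and distance class.

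Single neighbours ranged widely. Neighbours were counted once for every reporter they lay near. Within 1 kb the strongest reporters had 58 neighbours so counted, with a median level of 3.33. Of these neighbours 37.9% were over 4 and 5.17% below 0. A neighbour over 4 is itself a strongest reporter, so each such pair was counted from both sides. Around the other reporters, 1102 neighbours counted in this way had a median of 0.73, with 3.27% over 4 and 36.7% below 0. From 1 to 5 kb, neighbours of the strongest had a median of 3.57, with 35.2% over 4, against a median of 0.79 and 4.34% over 4 for the others. From 100 to 500 kb the shares over 4 were 6.19% and 2.75%. Of the neighbours within 1 kb of a strongest reporter, 70.7% were over 2.

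Neighbours' levels within 20 kb were also taken for subsets of the strongest reporters. The value of a reporter then did not use its own counts. Over all 434, 278 had such a neighbour. Counted once per strongest reporter, the 510 neighbours had a median level of 3.11, with 32.9% over 4. Those over 4 were themselves among the 434, so each such pair was counted from both sides. Counts of strongest reporters thus entered the medians of these subsets. In the 4 classes of DNA reads, from lowest to highest, the median was 3.13, 2.89, 3.52 and 2.89. For reporters over 5 the neighbours' median was 3.60, and for those between 4 and 5 it was 2.74. For reporters over the threshold in both cultures it was 3.33, and for those over it in a single culture or in none it was 2.53. Around the other reporters it was 0.72. These medians were not tested against each other.

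The share on the plus strand did not differ detectably, except where the lowest 10% of DNA counts were left out. The plus strand carried 209 of the strongest reporters (48.2%) and 49.2% of the others. The difference averaged -1.17 ± 3.21 percentage points over pools and was positive in 3 of 6 (exact sign-flip permutation test, p = 0.469, adjusted p = 0.625 over 4 measures of place, strand and barcode). Without the lowest 10% of DNA counts it was -2.53 points and passed (exact permutation test, adjusted p = 0.0417), while it was 0.56 points by culture 1 alone and 4.03 points at a threshold of 5. The median level was 4.48 on the plus and 4.58 on the minus strand. Within 5 kb, neighbours on the same strand as the strongest reporter averaged 3.37 ± 0.69 and those on the opposite strand 3.28 ± 0.56. Their difference was 0.09 ± 0.99 (exact sign-flip permutation test, p = 0.844, higher on the same strand in 4 of 6 pools; a test added after the data were seen).

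More integrations surrounded the strongest reporters than the others in every pool. The strongest had 4.26 ± 0.429 other reporters within 100 kb, and the others had 2.43 ± 0.0247 (SD, n = 6 pools). The difference, 1.83 ± 0.426, was positive in 6 of 6 pools. The exact sign-flip permutation test gave p = 0.03125, which became 0.0625 after adjustment over the 4 measures and so missed the threshold of 0.05. With 6 pools, at least 3 of the 4 measures must reach the smallest p for any of them to pass. No reporter lay within 100 kb of 25 of the strongest (5.76%) and of 17.9% of the others, while at least 7 lay within that distance of 80 (18.4%) and of 4.77%. The GC content of the barcodes was 41.65 ± 1.39% for the strongest and 41.40 ± 0.185% for the others. This differed by 0.247 ± 1.30 percentage points (exact sign-flip permutation test, p = 0.625, adjusted p = 0.625; higher in 4 of 6 pools), and its sign changed in either culture alone, without mPGK-B and at a threshold of 5.

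The 25 strongest reporters without a reporter within 100 kb had a median level of 4.43, and the rest of the 434 had 4.56. Of the 25, 5 were over 5. The highest of them, at 6.27, was the mPGK-D reporter on chromosome 5 named above, whose nearest neighbour of another pool, at 335581 bp, had a level of 0.97.

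Many of the strongest reporters lay in clusters. Joining those at most 50 kb apart gave 326 places. Of these, 258 held 1 strongest reporter, 43 held 2, 16 held 3, 4 held 4, 4 held 5 and 1 held 6. The 68 clusters of at least 2 held 176 of the 434 (40.6%). Of these clusters 61 drew on more than 1 pool, and 44 had both strands. Close pairs of any reporters also came mostly from different pools, and the same counts were not made for clusters of other reporters. Over pools, 36.9 ± 8.70% of the strongest reporters and 3.22 ± 0.574% of the others had a strongest reporter of another pool and barcode within 50 kb. The difference of 33.6 ± 8.54 percentage points was positive in 6 of 6 pools (exact sign-flip permutation test, p = 0.03125, adjusted p = 0.0625), and at a threshold of 5 it was 20.6 points. Denser integration by itself brings more reporters within 50 kb, and its part in this share was not tested.

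Pairs of adjacent strongest reporters showed no common strand. Within 50 kb there were 108 such pairs, of which 49 (45.4%) lay on the same strand and 89 came from different pools. Within 5 kb there were 36 pairs, 16 on the same strand and 33 from different pools. Most pairs of any autosomal reporters also came from different pools, and their strands were about even. From 1 to 5 kb, 658 such pairs lay on the same strand, 554 of them from different pools. On opposite strands there were 677, of which 577 were from different pools. The closest pair, 41 bp apart on chromosome 14, had levels of 4.91 in mPGK-B on the minus strand and 4.80 in mPGK-C on the plus strand. The largest gap without a strongest reporter was 59.3 Mb.

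The largest cluster, on chromosome 5 from 120029190 to 120112073 (82.9 kb), held 6 strongest reporters from 3 pools, 3 on each strand. Along the chromosome their levels were 4.58 in mPGK-F, 5.71 in mPGK-D, 5.18 in mPGK-E, 4.09 in mPGK-D, 6.16 in mPGK-D and 5.87 in mPGK-D. A single other reporter lay inside, in mPGK-B at 120030912, and it had a level of -1.09 with levels of -1.47 and -0.78 in cultures 1 and 2. It was on the same strand as the mPGK-F reporter nearby and had 693 and 575 DNA reads and 85 and 140 RNA reads. The 2 reporters on its flank of 50 kb had 3.54 and 3.99.

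Another cluster was far more compact. On chromosome 4 from 98503255 to 98510897 (7.64 kb), 5 strongest reporters from 4 pools had levels of 4.95 in mPGK-F, 5.50 in mPGK-B, 5.20 in mPGK-C, 4.85 in mPGK-B and 4.63 in mPGK-D. The remaining reporter there, in mPGK-B, had 3.39, so all 6 reporters in this stretch were high.

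A further cluster on chromosome 4, from 140841458 to 140860494 (19.04 kb), held 5 reporters, all over the threshold and from 3 pools. Their levels were 6.19 in mPGK-F, 4.88 in mPGK-E, 6.85 in mPGK-D, 6.67 in mPGK-E and 5.14 in mPGK-F. With a median of 6.19 it had the highest median among the 10 clusters with the most strongest reporters, and it holds the pair of chromosome 4 reporters named above.

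On chromosome 8 from 91526556 to 91571093 (44.5 kb), 5 strongest reporters from 4 pools had levels between 4.03 and 6.37. The others inside had 0.75 and 2.71, and the first of these, in mPGK-E, lay 375 bp from a strongest reporter of mPGK-D at 4.05. On its flanks 3 reporters had -0.37, -0.29 and 3.73. On chromosome 7 from 80681372 to 80753297 (71.9 kb), 5 strongest reporters from 3 pools had levels between 4.03 and 5.88, and the others inside had 3.52 and 3.99. All 5 reporters on its flanks were above 0, at 1.06 to 3.89.

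On chromosome 6 from 39350585 to 39395836 (45.3 kb), all 4 reporters were over the threshold, each from its own pool, with levels of 5.93 in mPGK-D, 4.92 in mPGK-C, 6.53 in mPGK-F and 5.77 in mPGK-E. At 492 bp from the first of these, a reporter of mPGK-A on the other strand had a level of -0.90. It rested on 49 and 105 DNA reads and 6 and 26 RNA reads. On chromosome 8 from 44374478 to 44417111, all 4 reporters were also over the threshold, at 4.31 to 6.14.

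The last 3 of the 10 clusters held 4, 4 and 3 strongest reporters. On chromosome 1 from 36003910 to 36039514, 4 strongest reporters had 4.51 to 5.06, with 3 others inside at 0.64, 2.11 and 2.32. On chromosome 11 from 62307474 to 62363261, 4 had 4.03 to 4.77, with 1 other inside at 0.46. On chromosome 11 from 69494934 to 69522693, 3 strongest reporters of 3 pools had 4.26 to 7.19, with 1 other inside at 2.30. Over the 25 clusters of at least 3, 17 other reporters lay inside, and 16 of them (94.1%) were above 0. Around reporters that were not among the strongest, 36.3% of neighbours within 20 kb were below 0, so most were above it there too. The choice of members sets the high levels in a cluster, so only the other reporters inside and on the flanks are measurements apart from it.

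**Figure D3:**
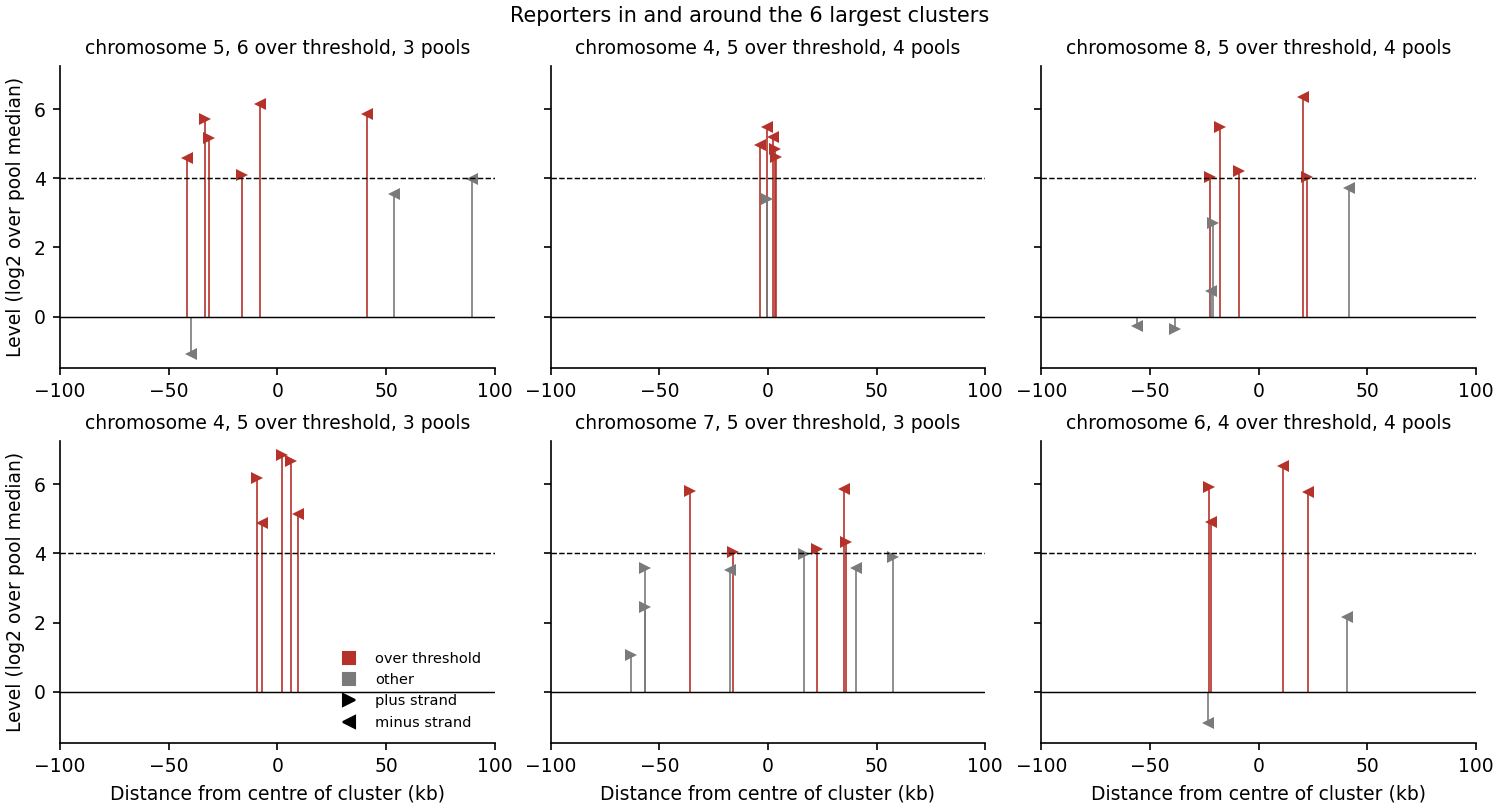
Level (log2 over the pool median) of every reporter within 50 kb of the 6 clusters with the most strongest reporters, against distance from the centre of the cluster in kb. Red symbols are strongest reporters and grey symbols others, and the direction of a symbol gives its strand; in the cluster of chromosome 5 the grey symbol at -1.09 lies between red ones of 4.58 and 5.71.

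The share of strongest reporters ran from 0.923% to 4.72% over the chromosomes. With 6 pools, at least 12 of the 19 chromosomes must reach the smallest p for any to pass after adjustment, so this design could hardly call a single chromosome. It was highest on chromosome 17 (4.72%, 32 of 678 reporters), chromosome 11 (3.86%, 41 of 1063) and chromosome 8 (3.62%, 32 of 884). It was lowest on chromosome 13 (0.923%, 8 of 867), chromosome 18 (1.14%, 7 of 614) and chromosome 6 (1.51%, 15 of 991). On chromosomes 13 and 18 a smaller part of the strongest than of the other reporters was found in 6 of 6 pools, with p = 0.03125 in the exact sign-flip permutation test and 0.297 after adjustment over 19 autosomes. On chromosome 17 it lay above in 4 of 6 pools (exact permutation p = 0.125, adjusted p = 0.424). By the exact sign-flip permutation test, 0 of 19 chromosomes (0%) passed the adjusted threshold of 0.05, and 2 passed at an unadjusted p of 0.05. In single pools the share on chromosome 17 ran from 2.36% to 9.09%.

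**Figure D4:**
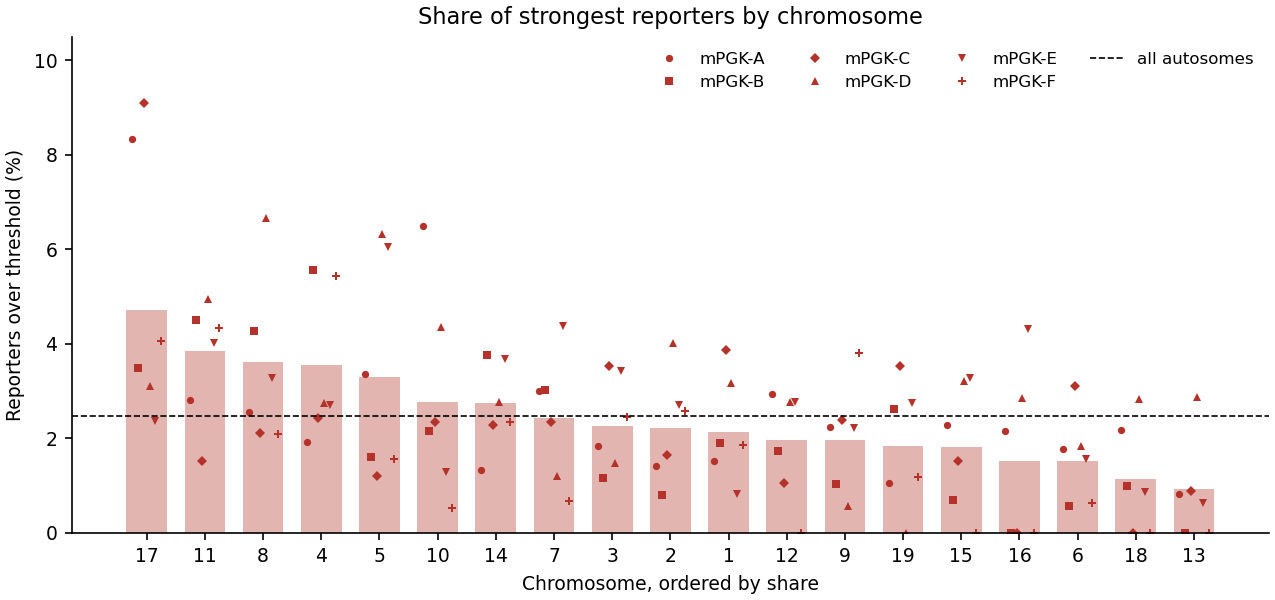
Percent of autosomal reporters that were over the threshold, by chromosome, ordered from highest to lowest. Bars are all 6 pools together, symbols are single pools, and the dashed line is the 2.48% of all autosomes; on chromosome 17, at 4.72%, the pools spread from 2.36% to 9.09%.

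Barcodes listed in more than 1 pool place the same tag at different sites. Among all reporters, 506 barcodes were of this kind, and none had the same place in several pools. The 23 of these among the strongest reporters gave a level at 23 other places, and 0 of these levels were over the threshold. Of all autosomal reporters 2.48% were over it, so a count of 0 in 23 is near the background. At the other place 10 were above 0 and 13 below. Of the 21 with RNA reads there, levels ran from -4.94 to 2.53 with a median of -0.08, close to the pool median. These other levels had no part in the choice.

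The 5 barcodes printed above illustrate the range. ATTTGAGAAAATTATA had a level of 5.81 in mPGK-D at chromosome 14 position 76892015, and 1.67 in mPGK-B at chromosome 15 position 85363303. ACGGGATTATTGTCAA had 5.48 in mPGK-A at chromosome 12 position 88140290, and -0.12 in mPGK-F at chromosome 13 position 65226549. TCCGGGTATACCGCCC had 5.39 in mPGK-E at chromosome 2 position 20448856, and -1.60 in mPGK-D at chromosome 4 position 53165771. All 3 were within 2 log2 units of the pool median at their other place.

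The remaining pair of the 5 lay at 0.23 and 2.53 at their other places. TTTTCCCCACCCAGGA had 5.32 in mPGK-B at chromosome 4 position 125175717, and 0.23 in mPGK-D at chromosome 6 position 94551958. CGAACACCTTTGATAC had 5.13 in mPGK-C at chromosome 9 position 59046251, and 2.53 in mPGK-F at chromosome 17 position 59019274, the highest of the 23 other places. One barcode, singled out after its values were seen, was AATATATCCTGAACAT. In mPGK-E on chromosome 7 at position 97590962 it had 2301 and 2518 RNA reads with 419 and 258 DNA reads, a level of 4.42. In mPGK-A on the same chromosome at position 135216560 it had 0 RNA reads with 1213 and 1083 DNA reads.

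**Figure D5:**
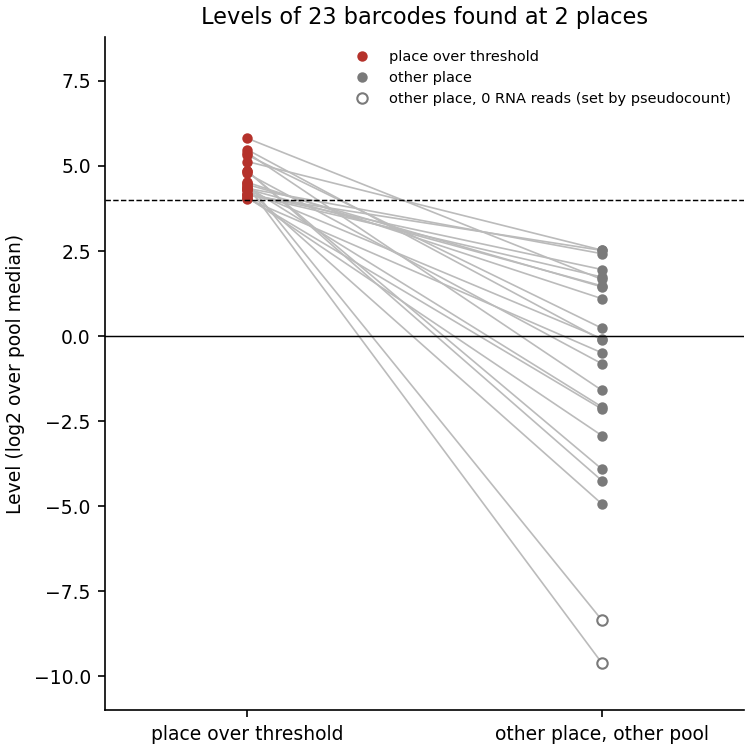
Level (log2 over the pool median) of 23 barcodes at the place where they were over the threshold (red, left) and at their other place in another pool (grey, right), joined by lines. Open symbols had 0 RNA reads, so that their level is set by the pseudocount; every grey symbol lies below the threshold of 4 (dashed).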

How the data were processed

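Barcode counts were taken from a deposited table of the whole series. For each integration it lists pool, barcode, chromosome, position, strand and the authors' raw counts of DNA and RNA reads in each of 2 cultures. The table's build is mm9 and Bowtie2 2.0 was used, per the submitters' processing notes. The handling of the 2 PCRs per culture and the first base of the position count (0 or 1) are not given in the sources used here. The series has 72 libraries in 18 groups of 4, of which those for mapping are seen through the positions alone.

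Levels were log2 of the RNA share (with 0.5 reads added) over the DNA share, averaged over cultures and centred on the pool median. The added reads set the level of barcodes without RNA. The members, measures and lists were chosen with earlier results of these data known, and likeness of neighbouring reporters was among those results. Pool values were compared with the exact two-sided sign-flip permutation test over 6 pools, where the smallest p is 0.03125, with Benjamini-Hochberg adjustment and a threshold of 0.05. The procedure was tested on simulated data. Culture numbers pair the RNA and DNA of one culture, per the labels, so each RNA count was set over the DNA count of the same culture. Correlations of the RNA and DNA deviations were -0.00212 to 0.0576 over pools, and -0.0854 to 0.363 among the strongest reporters alone. With the cultures crossed, the median difference between cultures among the strongest reporters was 0.389 instead of 0.382. The counts thus give little sign of the pairing, which rests on the labels, and so do the levels by culture. Named were the 10 highest reporters, 5 on each side of the threshold, the 5 highest with a barcode in another pool, the 10 clusters with most members and the 3 highest and 3 lowest chromosomes. Tables were made with pandas 2.3.3 and numpy 2.4.6, tests with scipy 1.17.1 and plots with matplotlib 3.10.9, all under Python 3.11.15. No mm9 annotation was used here, so genes around the sites were not analysed.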

Additional observations from a re-analysis of the deposited data

Results flagged for a closer look

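Reporters on the X chromosome lay outside the choice of autosomal reporters and were used in no comparison. Of these, 7 of 348 (2.01%) were over the same threshold, against 2.48% of the autosomal reporters, so their share was near that background. Their levels were 4.02 to 5.97. On the Y chromosome 0 of 9 were over it. In 19 sets of 6 pool values examined, no pool stood apart by Dixon's test, which marks about 1 in 20 sets by chance.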

How the results depend on the processing

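A threshold of 3 gave 1348 reporters in 216 clusters, and a threshold of 5 gave 115 in 14. With the threshold of 5 the difference for neighbours within 1 kb was 3.31 (exact permutation test, adjusted p = 0.0625). At the threshold of 4, with neighbours over 4 left out, it was 1.50 (exact permutation test, adjusted p = 0.0938). Without the lowest 10% of DNA counts, the plus-strand share differed by -2.53 points and passed (adjusted p = 0.0417, exact permutation), and the cause was not tested. The share with a strongest reporter within 50 kb (32.6 points) and local density (1.75) then passed at the same adjusted p. Their own p stayed at 0.03125, and the adjusted value fell because strand made 3 of 4 measures reach the smallest p. Directions changed for strand, to 4.03 points at a threshold of 5, and for barcode GC, to -0.423 points. In the leave-out fits strand ran from -3.51 to 0.56 points and GC from -0.154 to 0.642. The 6 named chromosomes kept their direction in every alternative run.

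Without single cultures or pools, the neighbour difference ran from 1.85 to 3.25 within 1 kb, 2.43 to 2.77 at 1 to 5 kb, 1.74 to 2.47 at 5 to 20 kb, 1.55 to 1.79 at 20 to 50 kb, 1.17 to 1.52 at 50 to 100 kb and 0.84 to 0.95 at 100 to 500 kb. With 5 pools p cannot go below 0.0625, which all neighbour classes reached, except that without mPGK-B the class within 1 kb had an exact permutation p of 0.125. Counts ran from 337 to 460 reporters and 48 to 64 clusters. Setting the RNA of each culture over the DNA of the other removes the replicate block, but the averaged level is the same by arithmetic. The resulting 434 reporters thus say nothing of the pairing. Leaving out barcodes listed in several pools, an alternative chosen after seeing the data, gave 411. No integration was listed in several pools, so using such integrations once changed nothing, and gene context was not run for lack of an mm9 annotation. DNA reads of a single barcode limit the order of the highest reporters.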

Other observations

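A few reporters lay 1 bp apart on opposite strands. It was not known which base of a site the listed position marks. Whether these pairs are the same insertion site in both orientations therefore cannot be decided here. There were 79 such autosomal pairs and none at 1 bp on the same strand. Their levels correlated with r = 0.217, and the median difference was 1.62 log2 units. Pairs 2 bp to 1 kb apart had r = 0.594 on the same strand (296 pairs) and 0.345 on opposite strands (325 pairs). From 1 to 5 kb the values were 0.467 and 0.404. These are correlations over pairs that share pools and places, given without a test.

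Of the strongest reporters, 5 had a partner at 1 bp, and in 0 of the 5 pairs were both over the threshold. On chromosome 4 at 116136003, the plus-strand reporter of mPGK-E had 5.65 and its minus-strand partner in mPGK-A 0.96. On chromosome 3 at 83673811, the minus-strand reporter of mPGK-A had 4.90 and its partner in mPGK-F 0.43. On chromosome 18 at 47080627, the minus-strand reporter of mPGK-D had 4.46 and its partner in mPGK-C 0.87. On chromosome 6 at 143092752, both were in mPGK-A, with 4.43 on the plus and 0.98 on the minus strand. On chromosome 12 at 4357304, the plus-strand reporter of mPGK-A had 4.17 and its partner in mPGK-F 2.79. The strongest reporter was thus the higher by 1.38 to 4.69 log2 units, and since it was chosen for a high level, a lower partner follows in part from that choice.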
